A study of Macaca mulatta with 33 samples.

Results

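The cytosolic ribosomal protein genes are the genes whose products, with the ribosomal RNAs, make up the ribosomes of the cytoplasm. They were taken by name from the expression table, as every gene whose symbol begins with RPL or RPS followed by a number, together with RPLP0, RPLP1, RPLP2 and RPSA where listed, and without the RPS6 kinases and RPS4Y genes. This gave 66 of the 34882 genes in the table. By name, 41 belong to the large subunit and 24 to the small subunit, and 1, RPS19BP1, is no subunit but a protein that binds one. A mean FPKM (fragment counts divided by transcript length and by the number of mapped fragments) of at least 0.5 over all livers was needed for testing, and 59 of the 66 reached it, 36 of the large and 22 of the small subunit with RPS19BP1. RPS28, RPS13, RPL28, RPL36, RPL34, RPL3L and RPL10L did not.

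Liver RNA was sequenced from 33 Japanese macaques of 3 years of age, with 1 library per animal. The groups were named by the diet of the mother in pregnancy and nursing and then by the animal's own diet from weaning, with CD for control diet and WSD for western-style diet. The CD/CD group (control diet at both stages) held 10 animals and the WSD/CD group (western diet in the mother alone) 10. The CD/WSD group (western diet after weaning alone) held 6 and the WSD/WSD group (western diet at both stages) 7. The labels used here give neither sex nor relatedness, and the p-values treat the animals as independent.

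Ribosomes consist of a small subunit, which reads the mRNA, and a large subunit, which joins the amino acids, and most subunit proteins are needed at 1 copy per ribosome. Most of their mRNAs begin with a terminal oligopyrimidine (TOP) tract, through which mTORC1, the growth kinase that responds to amino acids and insulin, controls their translation. The liver makes large amounts of secreted protein and depends on this machinery.

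Animals fell into 4 number series by the leading digits of the number in their sample title, 14 in series 30, 6 in series 31, 8 in series 33 and 5 in series 34. The labels do not say what the number stands for. Series 30 alone held all 4 groups, with 4 animals in CD/CD and 2 in WSD/CD, and with 3 in CD/WSD and 5 in WSD/WSD. In that series the animals weaned to the western diet were numbered 30155 to 30399. Those weaned to the control diet were numbered 30586 to 30734, so diet after weaning and number range cannot be told apart there. All 5 animals of series 34 were WSD/CD (replicates 6 to 10), so that series and that group cannot be told apart there. Summed FPKM of the hepatocyte markers was between 25747 and 40246 in the other 3 groups and as low as 7360 in WSD/CD. Genes with a value above 0 numbered 15519 to 17298 per library. Depth is not given by FPKM values.

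The deposited levels of the ribosomal protein genes were far apart. Mean FPKM ran from 0.594 for RPL19 to 844 for RPL23 among the 59 tested genes, a 1422-fold range. The 8 highest were RPL23, RPL5, RPL8, RPL15, RPL4, RPS7, RPS16 and RPL10A, and they gave 63.2% of the summed FPKM of all 66. RPL5 carries the small ribosomal RNA of the large subunit, RPL8 lies near the peptidyl transferase centre, RPL4 lines the exit tunnel for the new chain, and RPS16 lies close to the tRNA sites of the small subunit. Of the 66 genes, 15 had a mean of at least 100 FPKM, 29 lay between 10 and 100, 15 between 0.5 and 10, and 7 below 0.5.

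RPL23 ranged from 804 to 1077 FPKM in CD/CD livers with a median of 942. It ranged from 558 to 1128 with a median of 839.9 in WSD/CD, from 678 to 977 with a median of 729 in CD/WSD, and from 644 to 854 with a median of 744 in WSD/WSD. The CD/CD range overlapped that of each other group. RPL5 had means of 681 ± 50.9 FPKM (SD) over the 10 CD/CD livers and 577 ± 167 over the 10 WSD/CD livers. The 6 CD/WSD livers had a mean of 632 ± 82.9 and the 7 WSD/WSD livers one of 654 ± 58.7, all differences smaller than the SD within WSD/CD.

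Genes at the low end included proteins found in every ribosome, such as RPL19 (0.0558 to 1.39 FPKM), RPL31 (0.0962 to 3.74 FPKM) and RPL23A (0.406 to 2.74 FPKM). Ribosomal protein genes have many near-identical processed pseudogenes, and the labels do not say how reads shared between copies were assigned. The order of levels within the group is therefore uncertain. Setting a gene's values against each other across livers assumes that such reads were assigned alike in every library, which was not tested. RPS21 was listed at 0 in 26 of 33 libraries and at 3.53 to 14.02 FPKM in the other 7. RPS27 was listed at 0 in WSD/CD replicate 6 alone and lay between 52.4 and 273 FPKM in the other 32 libraries. RPLP1, a stalk protein that recruits elongation factors, was also listed at 0 in that library. Such zeros can be failed estimates.

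The genes below the filter included paralogs known from other organs. RPL10L, which replaces RPL10 in the testis of mice and humans, was listed at 0 in all 33 livers. RPL3L, the striated muscle form of RPL3, was listed at 0 in 27 livers and at 0.0403 to 0.245 FPKM in the other 6.

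**Figure D1:**
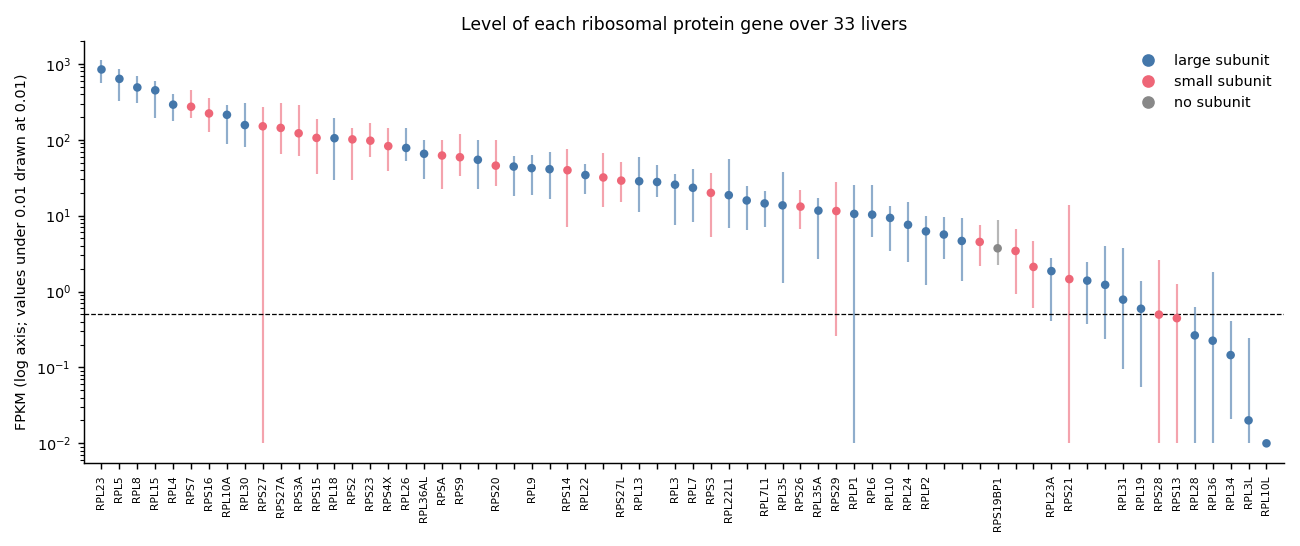
Mean FPKM (points) and lowest to highest value (lines) of each of the 66 genes over 33 livers on a log axis, coloured by subunit, with genes named in the text labelled, values under 0.01 drawn at 0.01 and a dashed line at the filter of 0.5 FPKM. RPL23 leads with 844 FPKM and RPL10L is listed at 0 throughout.

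Across the 33 livers the tested genes tended to move together. The correlation of a gene's log2(FPKM + 1) with the median of the other 58 had a median r of 0.62, was above 0.7 for 24 of 59 genes and below 0.3 for 7. RPS3 (r = 0.92), RPL7 (r = 0.91) and RPL18 (r = 0.91) followed the others most closely. RPS29 (r = -0.18), RPS21 (r = -0.07), RPL35 (r = 0.04) and RPS27L (r = 0.09) did not follow them. These points share the scale of each library, and after median-of-ratios scaling, which removes that scale, the median r was 0.59. RPL3, RPL7L1 and RPL10A then had r of -0.01, -0.11 and 0.09, so these genes no longer moved with the rest. Other genes lost correlation too, such as RPS27, from 0.69 to 0.20, and RPS14, from 0.81 to 0.35.

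The summed FPKM of all 66 genes was 6049 ± 666 (SD) over the 10 CD/CD livers and 5089 ± 1102 over the 10 WSD/CD livers. It was 5146 ± 742 over the 6 CD/WSD livers and 5155 ± 423 over the 7 WSD/WSD livers. This was 0.894% to 1.81% of all FPKM in a library. In series 30 the 4 CD/CD livers summed to 5810, 6766, 6574 and 6435 and the 2 WSD/CD livers to 6086 and 6040. The 3 CD/WSD livers of that series summed to 5001, 4709 and 4628 and the 5 WSD/WSD livers to 5572, 4678, 4689, 4842 and 5155, all below every CD/CD and WSD/CD liver of the series. The 5 CD/CD livers of series 33 lay at 5284, 5749, 5302, 5329 and 6078, overlapping both sets. The lowest sums of all were 2878, 4010 and 4118 in WSD/CD replicates 6, 9 and 7 of series 34.

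**Figure D2:**
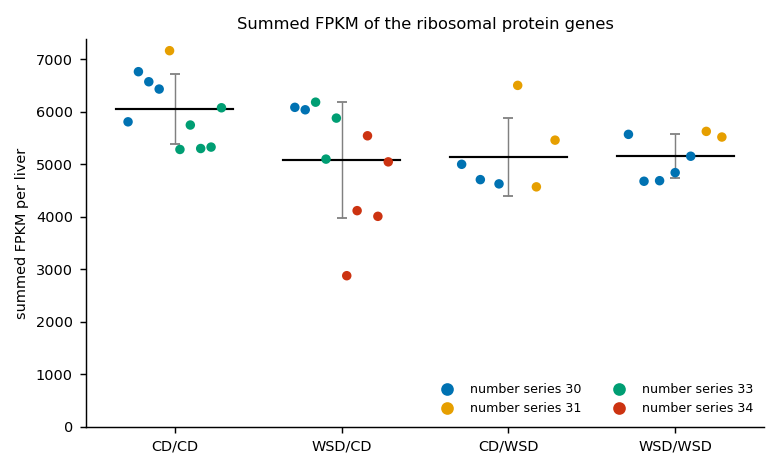
Summed FPKM of the 66 ribosomal protein genes in each liver (points, coloured by number series), with group mean (black line) and SD (grey bar). In series 30 the livers of animals weaned to the western diet (4628 to 5572) lie below those of animals weaned to the control diet (5810 to 6766), and WSD/CD replicate 6 is lowest at 2878.

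The small subunit genes summed to 0.36 to 0.56 times the large subunit genes. In series 30 the ratio was 0.44 to 0.51 in CD/CD, 0.45 to 0.50 in WSD/CD, 0.39 to 0.41 in CD/WSD and 0.36 to 0.44 in WSD/WSD.

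Western diet in the mother alone (WSD/CD against CD/CD) went with lower levels of 7 ribosomal protein genes and higher levels of none. Genes were tested with limma on log2(FPKM + 1) in 1 model over all 33 libraries, with Benjamini-Hochberg adjustment over 12497 genes and an adjusted p under 0.05 as the threshold. Of all genes tested, 8.03% fell and 1.52% rose in this comparison, so 7 of 59 is near the background. The median log2 fold change was -0.29 over the 59 genes and -0.15 over all genes. With median-of-ratios scaling 2 fell and 0 rose, against 2.5% and 3.31% of all genes, and with sample weights in limma 8 fell and 0 rose, against 11.8% and 2.78%. RPS2, RPS14, RPL6, RPL9, RPL7 and RPS16 were among the 7.

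RPS2, at the entry of the mRNA channel, ranged from 99.4 to 145 FPKM with a median of 112 in CD/CD and from 29.5 to 114 with a median of 81.5 in WSD/CD. Its log2 fold change was -0.74 (SE 0.19, limma adjusted p = 0.0233). The lowest values were in series 34, where replicates 6, 7, 9 and 10 held 29.5, 35.6, 40.0 and 54.6 FPKM, while replicate 8 held 98.4 and the other 5 WSD/CD livers held 74.8 to 114. RPS14, which lies at the exit of that channel, behaved alike, with 7.01, 13.5 and 13.8 FPKM in replicates 6, 7 and 9 against 31.98 to 76.1 in CD/CD (log2 fold change -0.73, SE 0.24, limma adjusted p = 0.0474).

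RPL9, a protein of the large subunit stalk base, was the only 1 of the 7 whose groups did not overlap. It ranged from 43.8 to 62.5 FPKM in CD/CD and from 18.97 to 43.2 in WSD/CD (log2 fold change -0.57, SE 0.12, limma adjusted p = 0.0116), so the gap was narrow. The share of all genes without overlap is not reported here, so this count is not set against a background. The lowest values were 18.97, 25.1 and 28.9 FPKM in WSD/CD replicates 6, 7 and 9. In these livers the median of all genes also lay below the CD/CD mean. The other WSD/CD livers held 37.0 to 43.2 FPKM of RPL9. All 10 WSD/CD livers lay below the CD/CD mean. RPL6 ranged from 9.21 to 24.998 FPKM with a median of 11.7 in CD/CD and from 5.84 to 10.8 with a median of 7.97 in WSD/CD (log2 fold change -0.66, SE 0.16, limma adjusted p = 0.0203). The ranges overlapped, and the CD/CD spread rested on 3 high livers, replicates 1, 2 and 8, at 24.998, 22.5 and 19.5 FPKM.

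Without the 5 series 34 animals, 0 of the 59 genes passed the threshold in limma, 2 had an unadjusted p under 0.05, and the median was -0.03. Of all genes, 0% rose and 0% fell in that fit. The share of all genes at an unadjusted p under 0.05 is not reported here or below, so such counts are not set against a background. RPL9 then stood at -0.36 and RPL6 at -0.58, and RPS2 at -0.22, none past the threshold. Within series 33 (3 WSD/CD against 5 CD/CD) and within series 30 (2 against 4) limma called 0 of the 59 genes. The median was 0.02 in both, with 3 and 2 genes at an unadjusted p under 0.05. Of all genes, 1.93% rose and 0.992% fell within series 30, and the shares within series 33 are not reported here. In series 30 RPS14 stood at 0.01.

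Of the 5 series 34 livers, 4 differed from CD/CD in other measures. Transcripts of 13 genes encoded in mitochondrial DNA held 15.8%, 11.5%, 16.1% and 7.58% of summed FPKM in replicates 6, 7, 9 and 10, against 1.33% to 3.46% in CD/CD. Replicate 8 was within that range at 1.98%, and outside series 34 WSD/CD replicates 2 and 3 lay above it at 6.94% and 5.06%. The median of all genes tested lay -0.52, -0.35, -0.35 and -0.13 from the CD/CD mean in replicates 6, 7, 9 and 10, and that of the ribosomal protein genes -1.08, -0.61, -0.57 and -0.25. In replicate 8 these medians were 0.05 and -0.14. Over the whole comparison 5 of 12 tested hepatocyte markers fell and 7 of 9 stellate cell and fibroblast markers rose, and their sums ran from 7360 to 35866 and from 103 to 292 FPKM in WSD/CD against 27450 to 38656 and 80.2 to 156 in CD/CD. The part of these measures in the ribosomal protein result was not tested. In bulk tissue, fewer cells of a type and less RNA per cell cannot be told apart.

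Western diet after weaning, where the mother ate the control diet (CD/WSD against CD/CD), changed 0 of 59 genes over all libraries by limma, with 9 at an unadjusted p under 0.05. Of all genes, 0.016% rose and 0.008% fell. The median was -0.19 over the 59 genes and 0.03 over all genes, and 50 of the 59 fold changes were negative. With sample weights in limma, 19 of the 59 fell and 0 rose, against 12.9% and 29.4% of all genes. With number series as a factor, 22 fell and 0 rose, against 11.3% and 22.9% of all genes. With median-of-ratios scaling 0 changed by limma, 12 had an unadjusted p under 0.05, and 0.08% of all genes fell and 0.088% rose. The share of all genes at an unadjusted p under 0.05 is not reported here, so the 9 and the 12 are not set against a background.

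Within series 30 the same comparison gave many lower ribosomal protein genes. Of the 59 genes 18 fell and 1, RPL10A, rose in the 3 CD/WSD livers against the 4 CD/CD livers, whereas 9.75% of all genes fell and 29.3% rose. The median was -0.32 over the 59 genes and 0.14 over all genes, and 53 of 59 fold changes were negative against 38.9% of all genes. With western diet at both stages (WSD/WSD against CD/CD, 5 against 4 livers), 20 fell and 3, RPL10A, RPL3 and RPL7L1, rose, against 11.4% and 33.3% of all genes. The median was -0.22 over the 59 genes and 0.17 over all genes. Both comparisons use the same 4 CD/CD livers, so the genes they have in common are not independent of each other.

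The falls were counted by level. Of the 15 with a mean of at least 100 FPKM, 10 fell with western diet after weaning alone and 10 fell with western diet at both stages, while RPL10A rose in both. Over all 432 tested genes at that level, 91 and 119 fell and 82 and 71 rose. Of the 29 ribosomal protein genes between 10 and 100 FPKM, 7 and 10 fell, and of the 15 between 0.5 and 10 FPKM, 1 and 0 fell. The shares of all genes at these lower levels are not reported here, and log2(FPKM + 1) understates changes of low genes. The smaller counts at lower levels are thus not set against a background. By subunit, 8 of 36 large and 9 of 22 small subunit genes fell in CD/WSD and 10 of 36 and 10 of 22 in WSD/WSD. The median log2 fold changes of the large and small subunit genes were -0.32 and -0.35 in CD/WSD and -0.13 and -0.42 in WSD/WSD.

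RPS7, a small subunit protein that can also bind the ubiquitin ligase MDM2, had 337, 451, 329.8 and 304 FPKM in the CD/CD livers of series 30 and 345 and 386 in the WSD/CD livers. It had 221, 227 and 195 in CD/WSD and 232, 203, 193, 196 and 202 in WSD/WSD. Every liver of an animal weaned to the western diet lay below every liver of an animal weaned to the control diet. The log2 fold changes against CD/CD were -0.71 (SE 0.14, limma adjusted p = 0.00140) and -0.78 (SE 0.12, limma adjusted p = 0.000243).

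RPS27A, which is made as a fusion with ubiquitin, had 181, 198, 210 and 183 FPKM in CD/CD and 175 and 180 in WSD/CD of series 30. It had 124, 111 and 110.0 in CD/WSD and 162, 123, 124, 98.2 and 106 in WSD/WSD. The western-weaned livers again lay below all others, and WSD/WSD replicate 1 at 162 was nearest to them. The log2 fold changes against CD/CD were -0.75 (SE 0.15, limma adjusted p = 0.00174) and -0.67 (SE 0.13, limma adjusted p = 0.00121).

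RPS15, a small subunit protein with its tail at the decoding site, showed the largest fall with western diet after weaning alone. It had 119, 189, 187 and 134 FPKM in CD/CD against 77.1, 69.01 and 78.6 in CD/WSD, a log2 fold change of -1.03 (SE 0.23, limma adjusted p = 0.00370). WSD/WSD livers held 145, 91.1, 85.9, 67.0 and 83.7 FPKM, and replicate 1 at 145 lay within the CD/CD range (log2 fold change -0.74, SE 0.20, limma adjusted p = 0.00960).

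RPL30, which forms a bridge between the subunits, had 166, 238, 308 and 188 FPKM in CD/CD of series 30. It had 140, 105 and 129 in CD/WSD (log2 fold change -0.81, SE 0.24, limma adjusted p = 0.0177) and 201, 133, 109, 127 and 112 in WSD/WSD (log2 fold change -0.71, SE 0.21, limma adjusted p = 0.0152). As with RPS15, only WSD/WSD replicate 1 reached into the CD/CD range.

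RPS4X, the X-linked form of its protein, had 109, 122, 84.5 and 81.5 FPKM in CD/CD and 58.3, 53.0 and 59.7 in CD/WSD (log2 fold change -0.77, SE 0.17, limma adjusted p = 0.00383). RPS26, which contacts mRNA upstream of the start codon, had 13.5, 14.03, 12.1 and 14.1 FPKM in CD/CD and 10.2, 6.61 and 7.30 in CD/WSD (log2 fold change -0.69, SE 0.24, limma adjusted p = 0.0382). Neither gene overlapped between these groups. RPS19BP1, which is known in human cells as a regulator of SIRT1 and a factor in small subunit assembly, fell in CD/WSD from 4.30 ± 0.887 (SD, n = 4) to 2.50 ± 0.0808 (n = 3) FPKM.

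RPS23, which acts in the accuracy of decoding, had 107, 151, 121 and 114 FPKM in CD/CD and 89.0, 80.5, 66.6, 72.6 and 78.5 in WSD/WSD, with no overlap (log2 fold change -0.66, SE 0.12, limma adjusted p = 0.000643). RPL6 had the largest fall in WSD/WSD, with 24.998, 22.5, 9.21 and 11.5 FPKM in CD/CD and 7.48, 5.31, 6.84, 6.35 and 9.34 in WSD/WSD (log2 fold change -1.07, SE 0.26, limma adjusted p = 0.00538). CD/CD replicates 1 and 2 lay far above replicates 3 and 4, and replicate 3 lay within the WSD/WSD range.

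RPL8 and RPL23 were the highest of the genes that fell in both comparisons. RPL8 held 515, 653, 645 and 599 FPKM in CD/CD, 421, 418 and 427 in CD/WSD and 445, 381, 369, 386 and 375 in WSD/WSD, with no overlap (log2 fold changes -0.51, SE 0.12, and -0.62, SE 0.10). RPL23, another protein that can bind MDM2, held 915, 1019, 1077 and 1017 in CD/CD, 737, 692 and 678 in CD/WSD and 834, 668, 644, 728 and 744 in WSD/WSD (log2 fold changes -0.52, SE 0.12, and -0.48, SE 0.10). Limma adjusted p-values of RPL8 and RPL23 were 0.0040 and 0.00452 in CD/WSD and 0.000368 and 0.00267 in WSD/WSD. In all, 16 genes fell in both comparisons, which are RPL4, RPL8, RPL9, RPL13, RPL18, RPL23, RPL26 and RPL30 of the large subunit and RPS3A, RPS4X, RPS7, RPS15, RPS16, RPS20, RPS23 and RPS27A of the small subunit.

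RPL10A, a protein of the mobile stalk near the exit tRNA site, went the other way. It held 144, 131, 176 and 226 FPKM in CD/CD, 180 and 205 in WSD/CD, 255, 241 and 249 in CD/WSD and 261, 221, 229, 233 and 278 in WSD/WSD of series 30. CD/CD replicate 4 at 226 overlapped the WSD/WSD range and no other CD/CD liver did. The log2 fold changes were 0.58 (SE 0.16, limma adjusted p = 0.0137) and 0.55 (SE 0.14, limma adjusted p = 0.00764). RPL3, at the peptidyl transferase centre, and RPL7L1, a paralog of RPL7 found in ribosome precursors, rose in WSD/WSD by log2 fold changes of 0.37 each (SE 0.13 and 0.12, limma adjusted p = 0.0362 and 0.0297).

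These 3 increases in WSD/WSD, and that of RPL10A in CD/WSD, did not pass under median-of-ratios scaling, which shifts the median of all genes from 0.14 to -0.02 in CD/WSD and from 0.17 to -0.02 in WSD/WSD. RPL10A then stood at 0.35 and 0.29, RPL3 at 0.12 and RPL7L1 at 0.12 in WSD/WSD, none past the threshold in limma. With that scaling 30 of 59 fell and 0 rose in CD/WSD against 20% and 22.1% of all genes, and 28 fell and 0 rose in WSD/WSD against 23.1% and 24.2%. All 16 genes that fell in both comparisons on deposited values were among the 25 that fell in both after scaling.

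**Figure D3:**
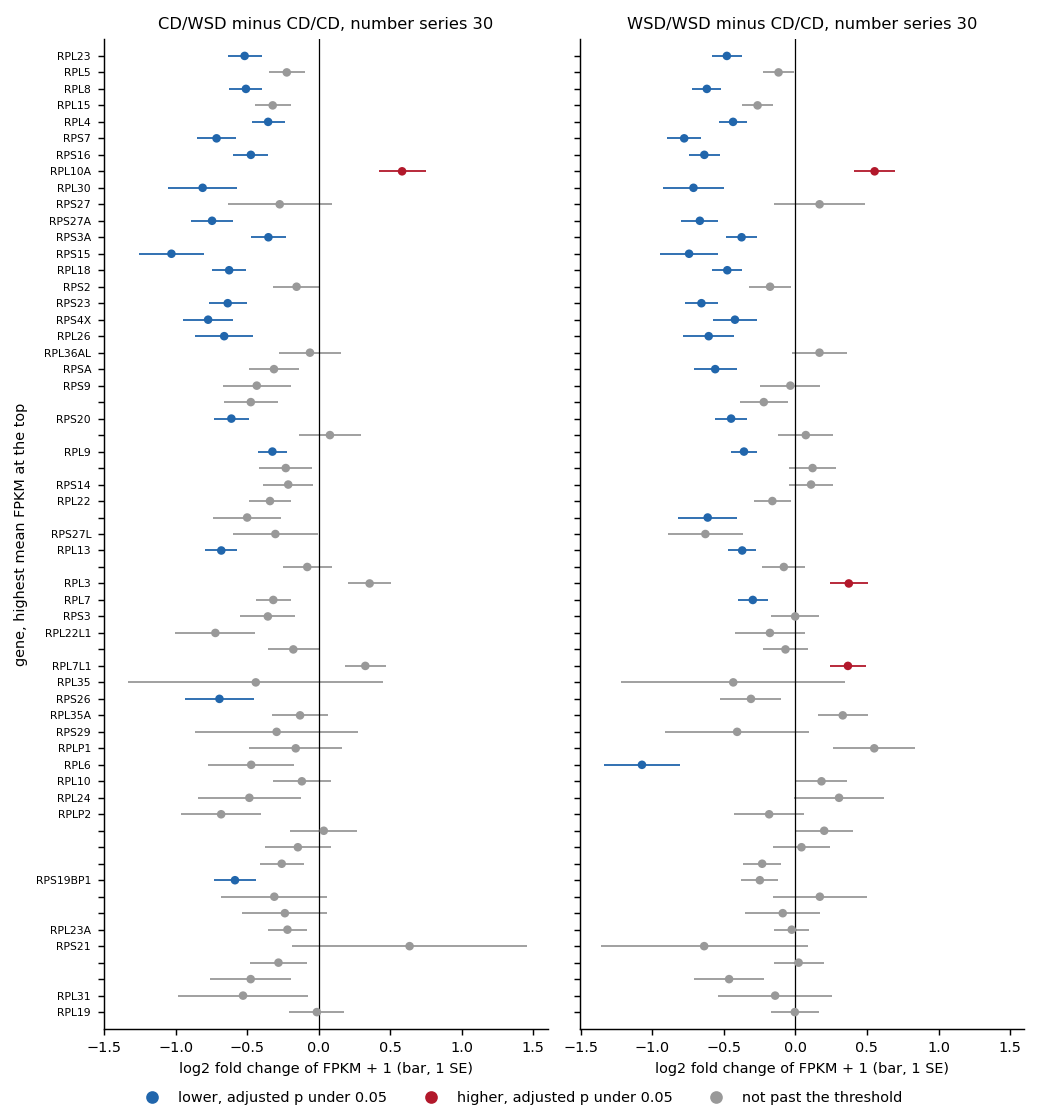
Log2 fold change of FPKM + 1 (points, with 1 SE) of the 59 tested genes within number series 30, for CD/WSD (left) and WSD/WSD (right) against the same 4 CD/CD livers, ordered by mean FPKM, with genes named in the text labelled. Genes past the threshold are mostly at the top of the order and negative, 18 on the left and 20 on the right, and RPL10A is positive in both. The scale understates changes of the low genes at the bottom of the order.

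Other measures moved with diet in series 30. The shares of all genes to read these counts against are 29.3% higher and 9.75% lower in CD/WSD, and 33.3% and 11.4% in WSD/WSD. Of 9 Kupffer cell and macrophage markers 8 rose in CD/WSD and 8 rose and 1 fell in WSD/WSD, and their summed FPKM was 377 to 529 in CD/CD, 367 to 664 in WSD/CD, 743 to 891 in CD/WSD and 632 to 767 in WSD/WSD. Endothelial markers summed to 42.6 to 54.3 in CD/CD against 81.8 to 89.0 in CD/WSD and 74.1 to 86.8 in WSD/WSD, with 3 of 8 higher in each. The WSD/CD livers summed to 37.9 and 80.6, so replicate 2 lay within the western-weaned range. Of 12 hepatocyte markers 4 rose and 0 fell in either comparison, which is near the share of all genes that rose. Of 9 stellate cell markers 1 rose, and of 8 tested T, NK and B cell markers 0 changed. After median-of-ratios scaling 6 and 5 Kupffer cell markers rose and 0 and 1 fell, 3 and 2 hepatocyte markers rose and 1 and 2 fell, and 3 and 3 endothelial markers rose and 1 and 2 fell. The mitochondrial share was 2.44% to 3.46% in CD/CD, 2.95% and 6.94% in the WSD/CD livers, 1.62% to 1.78% in CD/WSD and 1.34% to 1.98% in WSD/WSD. The part of these measures in the ribosomal protein result was not tested. With Y-linked expression added to the model, since the labels give no sex, 15 fell and 0 rose in CD/WSD and 20 fell and 4 rose in WSD/WSD. The shares of all genes in that fit are not reported here, so these counts are not set against a background.

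In series 31 the same contrasts rest on 1 CD/CD liver, replicate 5, which held the highest ribosomal protein sum of all (7166 FPKM). A fit of the 3 CD/WSD livers and the 2 WSD/WSD livers against it assumes that the lone liver varies like the others, so no counts are given. With the highest liver as the only control, no direction is read from series 31. Its Kupffer cell markers summed to 760.1 FPKM in that liver, 129 to 235 in CD/WSD and 211 to 225 in WSD/WSD.

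The CD/CD livers of series 33 had no western-weaned counterparts and lay lower than those of series 30 for several of these genes. RPS7 was at 245, 233, 210.3, 225 and 337 FPKM there, and RPS27A at 132, 157, 131, 142 and 138 FPKM, which meets the range of the western-weaned livers of series 30. RPL10A was at 242, 222, 243, 251 and 237 FPKM, level with those livers. The falls were thus measured against control livers of the same number series and not against all control livers. Within that series, diet after weaning cannot be told apart from the range of animal numbers.

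**Figure D4:**
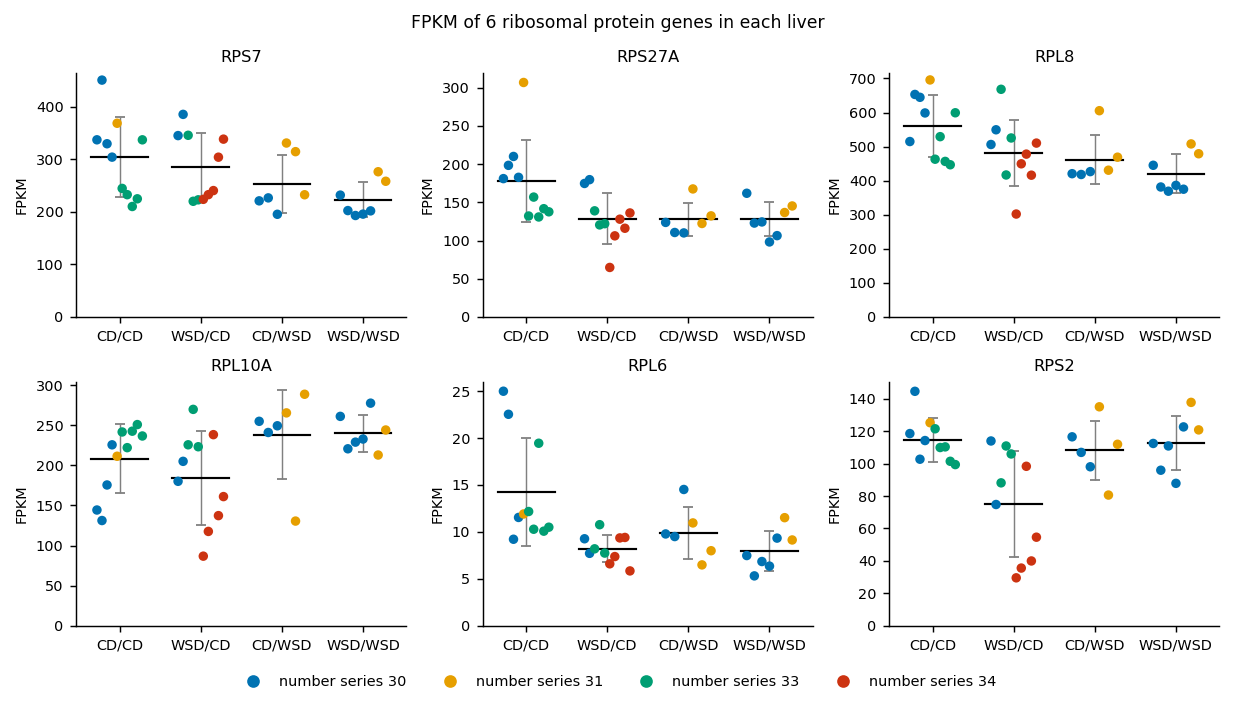
FPKM of RPS7, RPS27A, RPL8, RPL10A, RPL6 and RPS2 in each of the 33 livers (points, coloured by number series), with group mean (black line) and SD (grey bar). RPS7 separates western-weaned from control-weaned livers within series 30 but not across series, and RPS2 is low in 4 of the 5 series 34 livers, at 29.5 to 54.6 FPKM.

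Over all libraries, western diet at both stages (WSD/WSD against CD/CD) lowered 3 of 59 genes and raised 0, against 3.42% and 13.2% of all genes. The median was -0.10 over the 59 genes and 0.10 over all genes. RPL6 ranged from 5.31 to 11.5 FPKM with a median of 7.48 in WSD/WSD (log2 fold change -0.72, SE 0.18, limma adjusted p = 0.0136). RPS16 ranged from 159 to 226 with a median of 182 against 205 to 351 with a median of 259.7 in CD/CD (log2 fold change -0.45, SE 0.13, limma adjusted p = 0.0202). RPL8 ranged from 369 to 508 with a median of 386 against 447 to 696 with a median of 564 (log2 fold change -0.41, SE 0.14, limma adjusted p = 0.0404). All 7 WSD/WSD livers lay below the CD/CD mean for each of the 3 genes, and the ranges overlapped. Under median-of-ratios scaling 14 fell and 0 rose against 7.98% and 10.5% of all genes, and with sample weights 17 fell and 1 rose, against 12.1% and 27.2%.

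Maternal diet among animals weaned to the western diet (WSD/WSD against CD/WSD) changed 0 of 59 genes by limma and 0% of all genes, over all libraries and within series 30. At an unadjusted p under 0.05 there were 1 and 5 of the 59 genes. With sample weights limma also called 0 of the 59, with 0.032% of all genes higher and 0.008% lower. The median was 0.06 over all libraries and 0.10 within series 30. The smallest p-values over all libraries were those of RPL24, RPL36AL and RPLP1, with log2 fold changes of 0.69 (SE 0.29), 0.36 (SE 0.19) and 0.68 (SE 0.42). Within series 30 they were those of RPL13, RPL35A and RPS19BP1, with 0.31 (SE 0.11), 0.46 (SE 0.19) and 0.34 (SE 0.14).

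Diet after weaning among offspring of western-fed mothers (WSD/WSD against WSD/CD) had no stable direction. Over all libraries 10 of 59 genes rose and 0 fell, fewer than the 37.9% of all genes that rose, with 6.14% lower. The median was 0.08 over the 59 genes and 0.26 over all genes. RPS14 (0.76), RPL3 (0.74), RPS2 (0.71), RPL24 (0.69) and RPL35A (0.65) had the largest increases. RPL3 ranged from 28.4 to 34.9 FPKM in WSD/WSD and from 7.62 to 32.1 in WSD/CD (log2 fold change 0.74, SE 0.22, limma adjusted p = 0.00815). Under median-of-ratios scaling 0 rose and 11 fell, against 18.1% and 17.8% of all genes. Without series 34 limma called 0 of 59, with 6 at an unadjusted p under 0.05, while 3.07% of all genes rose and 0.384% fell. Sample weights gave 8 higher and 5 lower, against 36.7% and 10.1% of all genes, and number series as a factor gave 1 higher and 15 lower, against 30.8% and 10.1%.

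Within series 30, where WSD/CD had 2 livers, 16 fell and 2 (RPL3 and RPL7L1) rose, against 10.5% and 31% of all genes. RPS7 had the largest fall, with a log2 fold change of -0.83 (SE 0.15, limma adjusted p = 0.000907). RPS15 (-0.76), RPS23 (-0.70), RPL30 (-0.70), RPS4X (-0.58) and RPS27A (-0.55) followed. The count of called genes went from 18 to 11 without WSD/WSD replicate 4. The share of all genes in that fit is not reported here, so the change is not set against a background. Without either WSD/CD liver only 1 remained in that group, so no counts are given for those fits. WSD/CD replicate 2 stood apart from the CD/CD livers of the series in other measures. Its mitochondrial share was 6.94%, its hepatocyte markers summed to 22309 FPKM against 27450 to 34678, its stellate cell markers to 235 against 96.9 to 124, and its bile duct markers to 22.2 against 6.46 to 9.47. The part of these measures in the result was not tested.

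Between the 2 WSD/CD livers and the 4 CD/CD livers of series 30 limma called 0 of 59 genes, with 2 at an unadjusted p under 0.05, against 0.992% of all genes lower and 1.93% higher, and the median was 0.02. RPL9 came nearest, at a log2 fold change of -0.42 (SE 0.11, limma adjusted p = 0.0685), followed by RPL6 at -0.82 (SE 0.34) and RPS9 at 0.56 (SE 0.27). Only 2 livers stand on 1 side of that comparison.

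The interaction of maternal and postweaning diet reached 0 of 59 genes in limma over all libraries, with 9 at an unadjusted p under 0.05 and 0% of all genes called. With sample weights limma called 0 of the 59, 0.08% of all genes higher and 0.072% lower. RPL9 (0.60, SE 0.19), RPL24 (1.08, SE 0.37) and RPS14 (1.04, SE 0.38) had the smallest p-values, each with a limma adjusted p of 0.21. The median of the 59 genes was 0.30 with series 34 and 0.10 without it. Over all 432 tested genes of at least 100 FPKM the median with series 34 was 0.46, against 0.30 for the 15 ribosomal protein genes there. At that level the positive shift was not particular to the ribosomal protein genes.

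**Figure D5:**
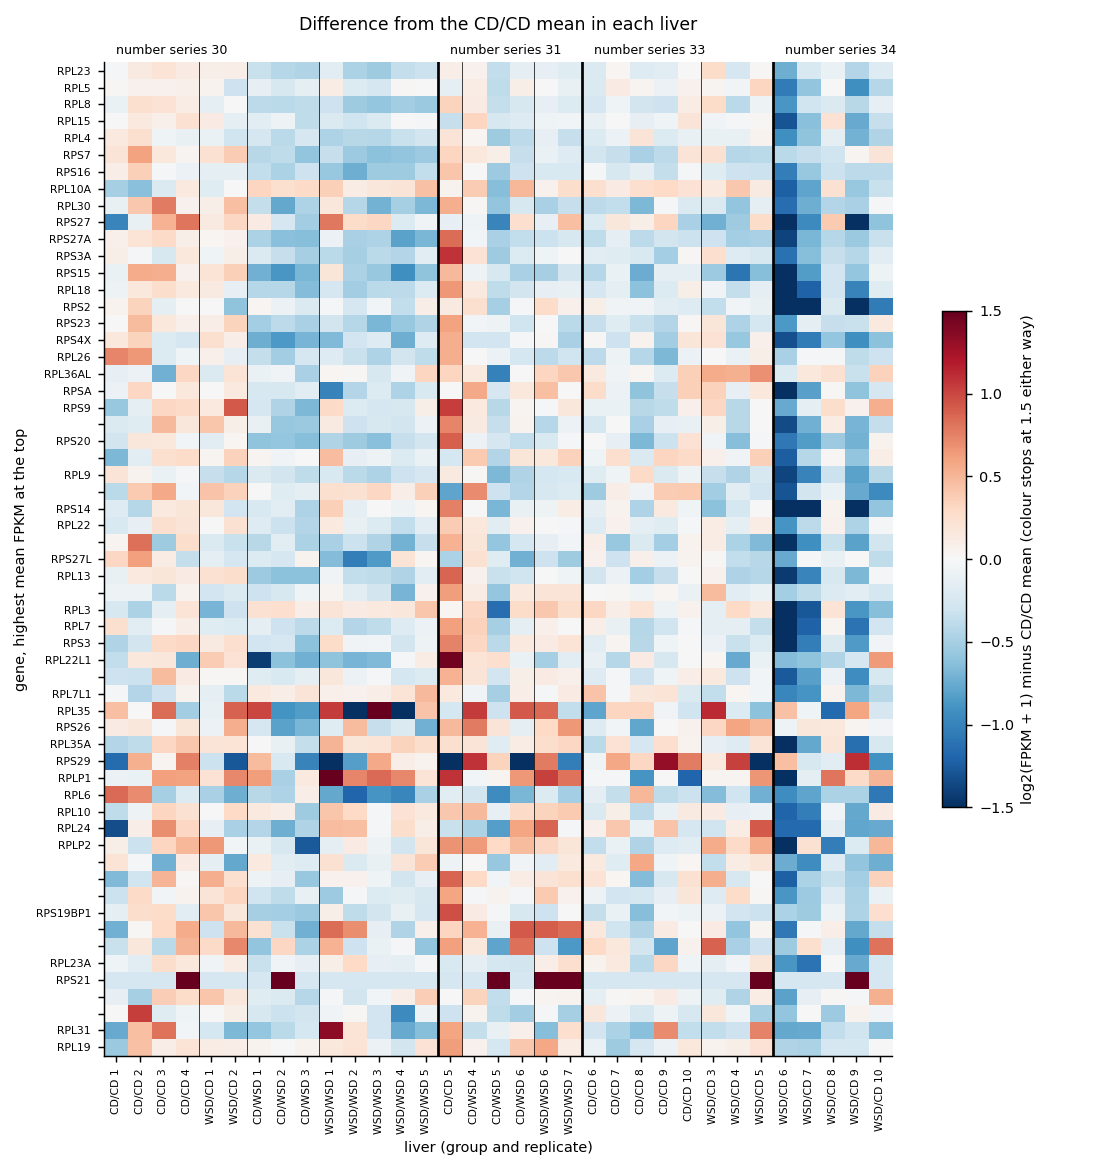
Log2(FPKM + 1) of the 59 tested genes in each of the 33 livers as the difference from the CD/CD mean, with genes ordered by mean FPKM (those named in the text are labelled) and livers by number series and group; red is higher, blue is lower, and the colour stops at 1.5 either way. WSD/CD replicates 6, 7 and 9 of series 34 are blue for most genes, and the western-weaned livers of series 30 are blue for most genes at the top of the order.

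Proteins encoded by fusion or outside the naming rule were also measured. FAU, which fuses a small subunit protein to a ubiquitin-like peptide, ranged from 40.7 to 97.3 FPKM in CD/CD of series 30, from 11.6 to 19.8 in CD/WSD and from 14.2 to 21.3 in WSD/WSD, without overlap. Its log2 fold changes were -1.84 (SE 0.27, limma adjusted p = 0.000239) and -1.53 (SE 0.24, limma adjusted p = 0.000263), beyond that of any of the 59 genes. RACK1, a signalling scaffold on the small subunit, ranged from 132 to 183 FPKM in CD/CD of series 30, from 90.2 to 99.0 in CD/WSD and from 82.7 to 99.4 in WSD/WSD (log2 fold changes -0.65, SE 0.12, and -0.71, SE 0.11).

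Paralog ratios were tested for RPL22L1 over RPL22, RPS27L over RPS27 and RPL7L1 over RPL7, since a ratio within 1 library does not depend on its scale. None of the 15 comparisons had an adjusted p under 0.05 over all libraries by permutation tests, exact where a group had fewer than 10 livers. The smallest raw p was that of RPS27L over RPS27 in WSD/WSD against WSD/CD, at a difference of -1.47 in log2 ratio (two-sided exact p = 0.0276, adjusted p = 0.345), and WSD/CD replicate 6, where RPS27 was listed at 0, entered it. Without series 34 the difference was -0.53 (exact p = 0.215). Within series 30 the RPL7L1 over RPL7 log2 ratio was -0.99 ± 0.12 (SD, n = 4) in CD/CD and -0.33 ± 0.11 (n = 5) in WSD/WSD, a difference of 0.66 (two-sided exact permutation p = 0.0159, adjusted p = 0.238 over 15).

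Genes that act with the ribosome changed in both directions in series 30, and the balance moved with scaling. Among all genes, 29.3% rose and 9.75% fell in CD/WSD and 33.3% rose and 11.4% fell in WSD/WSD, and after median-of-ratios scaling 22.1% rose and 20% fell and 24.2% rose and 23.1% fell. Of 39 tested translation factors and other TOP mRNAs, 8 rose and 8 fell in CD/WSD and 11 rose and 10 fell in WSD/WSD, with medians of 0.09 and 0.04. After median-of-ratios scaling 4 rose and 15 fell, and 6 rose and 16 fell. IPO7, a nuclear importer of ribosomal proteins, rose in both (log2 fold changes 1.10, SE 0.12, and 1.14, SE 0.11). Of 55 ribosome biogenesis genes, 7 rose and 13 fell in CD/WSD and 10 rose and 9 fell in WSD/WSD, with medians of -0.13 and 0.01. After that scaling 4 rose and 22 fell, and 5 rose and 19 fell. POLR1B, a core subunit of RNA polymerase I, rose in both (1.22, SE 0.17, and 1.27, SE 0.15), while NOP56, of the nucleolar methylation complex, and PES1, of the large subunit processing complex, fell in CD/WSD (-0.89, SE 0.15, and -0.70, SE 0.11).

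Of 27 tested genes of mTORC1 and of the control of TOP mRNA translation, 7 rose and 4 fell in CD/WSD and 9 rose and 3 fell in WSD/WSD, with medians of 0.05 and 0.14. The counts of higher genes are near the 29.3% and 33.3% of all genes that rose. After that scaling 6 rose and 6 fell, and 7 rose and 7 fell. EIF4EBP2, which blocks cap-dependent initiation unless mTORC1 phosphorylates it, rose by log2 fold changes of 1.76 (SE 0.22) and 1.70 (SE 0.19). SESN3, a stress-induced protein that restrains mTORC1, rose by 1.14 (SE 0.18) and 1.02 (SE 0.16), and LAMTOR2, of the lysosomal scaffold that activates mTORC1, fell in WSD/WSD (-1.13, SE 0.14). Over all libraries 0 of these 27 genes, 0 of the 39 and 0 of the 55 passed in CD/WSD. In WSD/CD against CD/CD over all libraries 3 of 39, 6 of 55 and 4 of 27 fell and 0 rose, beside 8.03% of all genes.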

How the data were processed

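The authors deposited 1 table of FPKM values for the 33 libraries. RNA was isolated with a Qiagen kit and made into directional mRNA libraries, per the labels' protocols. GSNAP, SAMtools and Cufflinks were used, per the submitters' processing notes. Genome build and handling of multiply mapped reads or strand: not given in the sources used here. Of species, the organism label is rhesus macaque, and the design text speaks of Japanese macaques. Columns were assigned by animal number.

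The value 999999999 was treated as missing, and 15 genes with a missing value were left out. The 12497 genes averaging 0.5 FPKM or more entered limma 3.58.1 (R 4.3.3) as log2(FPKM + 1), with an intensity trend and Benjamini-Hochberg adjustment. The scale understates changes of low genes. The test was checked on simulated data. Number series are the first 2 digits of the animal number. The relative depth of libraries, read from low FPKM values, was roughly 0.52 to 1.68, and FPKM gives no counting interval. No 2 libraries were copies of each other (highest correlation 0.98). Of the genes that the table gives by identifier alone, 635 had a symbol in the reference table and 10519 had none there either.

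The ribosomal protein genes, gene lists and tests were chosen with earlier results of these data known. Named genes are, per comparison, up to 6 largest increases and decreases past the threshold or else the 3 smallest p-values, the 8 highest genes, paralogs, RPS19BP1, filtered genes, and up to 3 genes per other list with FAU and RACK1. Some genes of these lists are not reported here. RPL23A, RPL31, RPS3, RPS29, RPL35, RPS21, RPS27, and the further identifiers of the closing section were named after their values were seen.

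Alternatives were a pseudocount of 0.1, no filter, median-of-ratios scaling, only the groups compared, sample weights, Y-linked genes as a covariate, no series 34, number series as a factor, and series 30 alone. Fits within series 31 and 33, and the further fits within series 30, were added after seeing the data.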

Additional observations from a re-analysis of the deposited data

Results flagged for a closer look

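In each group, 30 ribosomal protein genes and 3 library measures were checked for a liver whose gap to its nearest neighbour was large against the group's range, 132 checks in all, of which 14 stood out. Chance gives about 1 in 20. In WSD/CD replicate 6, RPS16 was at 128 FPKM (other livers of the group 178 to 239), RPS27A at 64.8 (106 to 180) and RPLP1 was listed at 0 (7.03 to 14.5). In CD/WSD replicate 5, RPL3 was at 11.2 (27.9 to 32.3), RPL10A at 130.5 (241 to 289) and RPL7L1 at 10.3 (14.5 to 17.3).

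In CD/WSD replicate 4 RPL8 was high at 605 FPKM (418 to 469), and in CD/WSD replicate 6 RPL24 was high at 12.02 (3.87 to 5.37). WSD/WSD replicate 1 had RPL30 at 201 (109 to 141). Among CD/CD livers, replicate 5 was high for RPS14 at 76.1 (31.98 to 50.6) and for RPL13 at 59.5 (22.2 to 36.6), replicate 1 was low for RPL24 at 2.46 (5.86 to 13.1), replicate 3 for RPL36AL at 37.2 (53.2 to 79.5), and replicate 8 for RPS26 at 6.74 (10.7 to 17.6).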

How the results depend on the processing

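In WSD/CD against CD/CD the 7 called ribosomal protein genes became 4 with no filter, 2 with median-of-ratios scaling, 3 with Y-linked genes as a covariate, and 0 with only the groups compared, without animals numbered above 34000, within series 30, within series 33 and with number series as a factor. RPS14 in that comparison went from -0.73 to 0.014 within series 30. In CD/WSD against CD/CD the 0 became 19 with sample weights, 22 with series as a model factor and 19 in series 30 alone. In WSD/WSD against CD/CD the 3 became 14 with median-of-ratios scaling, 10 with only the groups compared, 18 with sample weights, 9 without animals numbered above 34000, 21 with series as a model factor and 23 in series 30 alone. Of all genes in that comparison, 17.1% rose and 4.8% fell without those animals, and 30.7% rose and 13.5% fell with series as a model factor. The shares of all genes with no filter, with Y-linked genes and with only the groups compared are not reported here. These counts pool both directions, and those without a share are not set against a background.

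In WSD/WSD against WSD/CD the 10 called genes, all higher, became 11, all lower, with median-of-ratios scaling, 0 without animals numbered above 34000, 16 (15 lower) with series as a model factor and 18 (16 lower) in series 30 alone. The causes were not tested. Within series 30, median-of-ratios scaling moved the 19 calls of CD/WSD against CD/CD to 30. Leaving out 1 liver at a time gave 13 to 21 calls there, 18 to 23 in WSD/WSD against CD/CD, and 5 to 19 in WSD/WSD against WSD/CD, where WSD/CD had 1 liver left in the smallest fits and that liver was assumed to vary like the others. Counts were 0 for WSD/WSD against CD/WSD, the interaction and the paralog ratios under every alternative run. Of 213 recomputed values of single genes, 143 kept direction and side of the threshold, 61 lost the threshold, 8 gained it and 1 reversed.

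No paired analysis was possible because the titles carry animal numbers, and the replicate numbers, given in accession order, do not pair animals across groups. Depth is not known from FPKM, series 31 and 33 lack some groups, and values of genes with near-identical copies are uncertain.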

Other observations

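The table of identifiers and symbols named 13 further genes of the deposited table as ribosomal proteins, of which 10 were tested and 4 share a symbol with a gene counted above. An identifier named RPS24 had a mean of 401 FPKM, against 4.51 for the RPS24 counted above. Within series 30, 5 of the 10 fell and 0 rose in CD/WSD against CD/CD, with a median of -0.21, and 3 fell and 0 rose in WSD/WSD against CD/CD, with a median of -0.23. Of all genes 9.75% and 11.4% fell and 29.3% and 33.3% rose in these comparisons. The genes that fell in both were the 401 FPKM identifier named RPS24 at -0.67 (SE 0.12) and -0.75 (SE 0.10), RPL41, the shortest ribosomal protein, at -0.89 (SE 0.20) and -0.49 (SE 0.18), and RPS15A at -0.57 (SE 0.14) and -0.33 (SE 0.13). RPS19, which is mutated in Diamond-Blackfan anaemia, fell in CD/WSD (-1.003, SE 0.27) and stood at -0.51 (SE 0.24) in WSD/WSD, not past the threshold. RPL37 stood at 0.34 (SE 0.18) and 0.41 (SE 0.16) and a second identifier named RPS2 at -0.02 (SE 0.15) and 0.27 (SE 0.13), none past the threshold. These livers are those of the comparisons above, so the values add genes and not animals.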
